A study of Mus musculus with 10 samples.

Results

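MHC class I molecules and the immunoproteasome form one antigen presentation pathway, and 10 of its genes were followed here in the left ventricle of mice with chronic kidney disease. The 10 genes are the class I heavy chains H2-K1 and H2-T23, the light chain B2m, the peptide transporter and loading genes Tap1, Tap2 and Tapbp, the immunoproteasome subunits Psmb8, Psmb9 and Psmb10, and the regulator Nlrc5. They were taken by symbol from a table of 23303 gene entries, and all 10 had an entry of their own. The heavy chains H2-D1 and H2-L share 1 joined entry, which is given beside them. Values are FPKM, fragment numbers per transcript length and per mapped fragments, so levels of different genes in a library can be compared per length.

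The series concerns uremic cardiomyopathy, a disorder of the heart in kidney failure. RNA was sequenced from the left ventricle of 10 male 129X1/SvJ mice, 5 whose surgery entry reads CKD (chronic kidney disease) and 5 whose entry reads Sham. Both groups share strain and sex, no engineered allele or drug is labelled, and the sources used here do not give the form of the kidney operation or the age of the mice. Each library is a separate mouse per the series' design text, and the numbers 1 to 5 only name mice within a group.

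Class I molecules are carried by nearly all nucleated cells and show short peptides from the cell's own proteins to CD8 T cells. The proteasome cuts the peptides, the TAP transporter moves them into the endoplasmic reticulum, and tapasin helps load them onto a heavy chain paired with beta-2-microglobulin. Interferons raise most of these genes, through IRF1 and other factors and through NLRC5, a coactivator that acts at the conserved boxes of class I promoters, and heart muscle at rest carries little class I.

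CKD 1 and Sham 1 stand apart from the other 8 libraries, and the comparisons of the 10 genes are therefore also given without CKD 1, and some without both. The share of all FPKM held by the top 10 entries was 14.8% for CKD 1 and 15.3% for Sham 1, and lay between 17.6% and 18.2% for the remaining libraries. FPKM values of at most 0.2 showed the same difference. Between pairs of the other 8 libraries, 27.1% to 31.6% of the ratios of such values fell at the commonest ratio (within 0.01 on the log2 scale). The share was 1.82% to 2.48% between either of CKD 1 and Sham 1 and the other 8, and 11.2% between CKD 1 and Sham 1. Relative depth could be read from this spacing for the other 8 only, and was 0.906 to 1.15 times that of Sham 2. The read number behind an FPKM value is unknown.

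The start regions of 4 heavy or light chain and transporter genes are shown as examples, because NLRC5 and the interferon factors act on such sequence. Whether these stretches bear on the levels measured here was not tested. Each line gives the 250 bases before the RefSeq start site in GRCm38.p6, 5′ to 3′ on the gene's strand. Capitals mark TGACG (the core of the X2 box), ATTGG (the core of the Y box), AANNGAAA (bound by interferon regulatory factors), its longer form (GAAA, any 2 bases, GAAA) and GGGGA directly followed by TTCCCC (the NF-kappaB site of class I genes), each on either strand.
B2m, chr2:122147437-122147686, plus strand: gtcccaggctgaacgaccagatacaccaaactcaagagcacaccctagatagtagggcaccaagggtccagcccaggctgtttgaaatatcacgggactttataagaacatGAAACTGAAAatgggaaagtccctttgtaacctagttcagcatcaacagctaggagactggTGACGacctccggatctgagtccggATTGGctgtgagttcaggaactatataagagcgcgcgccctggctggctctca
H2-K1, chr17:34000348-34000597, minus strand: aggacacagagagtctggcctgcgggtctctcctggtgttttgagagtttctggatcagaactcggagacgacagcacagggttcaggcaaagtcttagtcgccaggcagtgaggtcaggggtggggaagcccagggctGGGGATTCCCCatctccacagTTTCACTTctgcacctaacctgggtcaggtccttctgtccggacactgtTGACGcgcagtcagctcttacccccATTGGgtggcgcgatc
H2-D1, chr17:35262844-35263093, plus strand: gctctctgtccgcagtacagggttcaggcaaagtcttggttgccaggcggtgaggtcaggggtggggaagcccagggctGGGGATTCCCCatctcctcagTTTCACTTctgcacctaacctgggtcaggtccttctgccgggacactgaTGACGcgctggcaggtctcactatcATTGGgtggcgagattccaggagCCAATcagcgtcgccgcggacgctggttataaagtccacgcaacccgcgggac
Tap1, chr17:34187306-34187555, plus strand: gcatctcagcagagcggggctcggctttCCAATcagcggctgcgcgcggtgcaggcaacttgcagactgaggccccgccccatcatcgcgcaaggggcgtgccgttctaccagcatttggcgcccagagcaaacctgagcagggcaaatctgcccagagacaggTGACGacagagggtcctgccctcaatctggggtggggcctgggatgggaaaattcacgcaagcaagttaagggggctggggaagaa

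In B2m, H2-K1 and H2-D1 the letters TGACG were followed by ATTGG on the same strand, with the second starting 25 bases after the first. TGACG began 78 bases before the start site in B2m, 41 before it in H2-K1 and 101 before it in H2-D1. H2-K1 had 2 RefSeq start windows, of which the first listed was used, so its distance depends on that choice. Among 27025 genes with a window of 300 bases (250 before to 50 after the start), 27 held this pair, which is 0.0999%, and H2-M3, another class I-like gene, was among them. The spacing was chosen after these sequences were seen. Alone, TGACG stood in the window of 23% of genes and ATTGG in 41.1%. GGGGA directly followed by TTCCCC stood in 9 genes (0.0333%), H2-K1 and H2-D1 among them. The pair of GAAA with 2 bases between, found in B2m and H2-T23, stood in 3.99%, and the shorter AANNGAAA, which overlaps it, in 26.7%. The windows of Psmb8 and Psmb10 held none of the stretches marked above, and that of Tapbp held ATTGG alone. CKD 1 was the highest library for these genes too. In these windows 8 of the 10 genes had a RefSeq entry, and a match describes letters, not binding.

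In GRCm38, 7 of the 10 genes lie on chromosome 17, and 4 of these adjoin. Psmb9 (34182030 to 34187330), Tap1 (34187556 to 34197225), Psmb8 (34198195 to 34201454) and Tap2 (34204479 to 34216321) together span 34292 bases. Psmb9 and Tap1 point away from each other with 225 bases between them, so their 300-base windows share 275 bases and the Tap1 line above also covers most of the Psmb9 start region. Tapbp lies from 33919478 to 33929290, H2-K1 from 33996012 to 34000619 and H2-T23 from 36029977 to 36032701 on the same chromosome. B2m is on chromosome 2 (122147687 to 122153082). Psmb10 (105935728 to 105938392) and Nlrc5 (94434335 to 94527272) are on chromosome 8.

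In Sham ventricles, B2m had the highest level of the 10 genes, 188 to 309 FPKM over the 5 mice. The joined H2-D1,H2-L entry (77.4 to 92.6 FPKM) and H2-K1 (65.9 to 83.1) came next and overlapped each other. Psmb10 (34.4 to 44.0 FPKM) and Tapbp (31.5 to 36.3) overlapped likewise, as did Tap2 (16.4 to 20.4) and H2-T23 (15.1 to 16.5). Psmb8 (7.71 to 11.5 FPKM) and Psmb9 (6.45 to 10.4) overlapped below them. Tap1 followed at 2.33 to 4.47 FPKM and Nlrc5 was lowest, at 0.399 to 0.577. B2m, the H2-D1,H2-L entry and H2-K1 were thus the most abundant of these transcripts in hearts of sham-operated mice, while the heavy chain H2-T23 lay below Psmb10 and Tapbp.

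CKD was compared with Sham on log2(FPKM + 0.5) by limma over the 11651 entries with a mean of at least 1 FPKM, with a two-sided test and p adjusted by Benjamini-Hochberg over all of them. All 10 genes passed this filter, Nlrc5 only through CKD 1. Psmb10 was the 1 gene of the 10 called higher in CKD at an adjusted p under 0.05, where 3.17% of all tested entries were called higher, and none was called lower (background 2.12%). An unadjusted p under 0.05 was reached by 5 of 10, all higher in CKD, against 10.5% of tested entries, and by 7 of 10 without CKD 1, against 10.6%. Without CKD 1, H2-T23 and Psmb10 were called (background 2.77% higher), and with Sham 1 left out as well the same 2 genes (background 2.62% higher and 2.14% lower). Leaving Nlrc5 aside, the difference was positive for 9 of 9 genes with all libraries and for 8 of 9 without CKD 1, Tapbp being the exception, against 48.9% and 47.6% of tested entries. The median difference over these 9 was 0.61 on the log2 scale, and 0.37 without CKD 1, beside medians of -0.0035 and -0.0092 over all tested entries. Every CKD value lay above every Sham value for H2-T23, Psmb8 and Psmb10, 3 of 10, as for 4.1% of tested entries. The same holds for 3 of 10 without CKD 1 (background 5.25%) and for 5 of 10 without both libraries (background 6.6%).

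**Figure D1:**
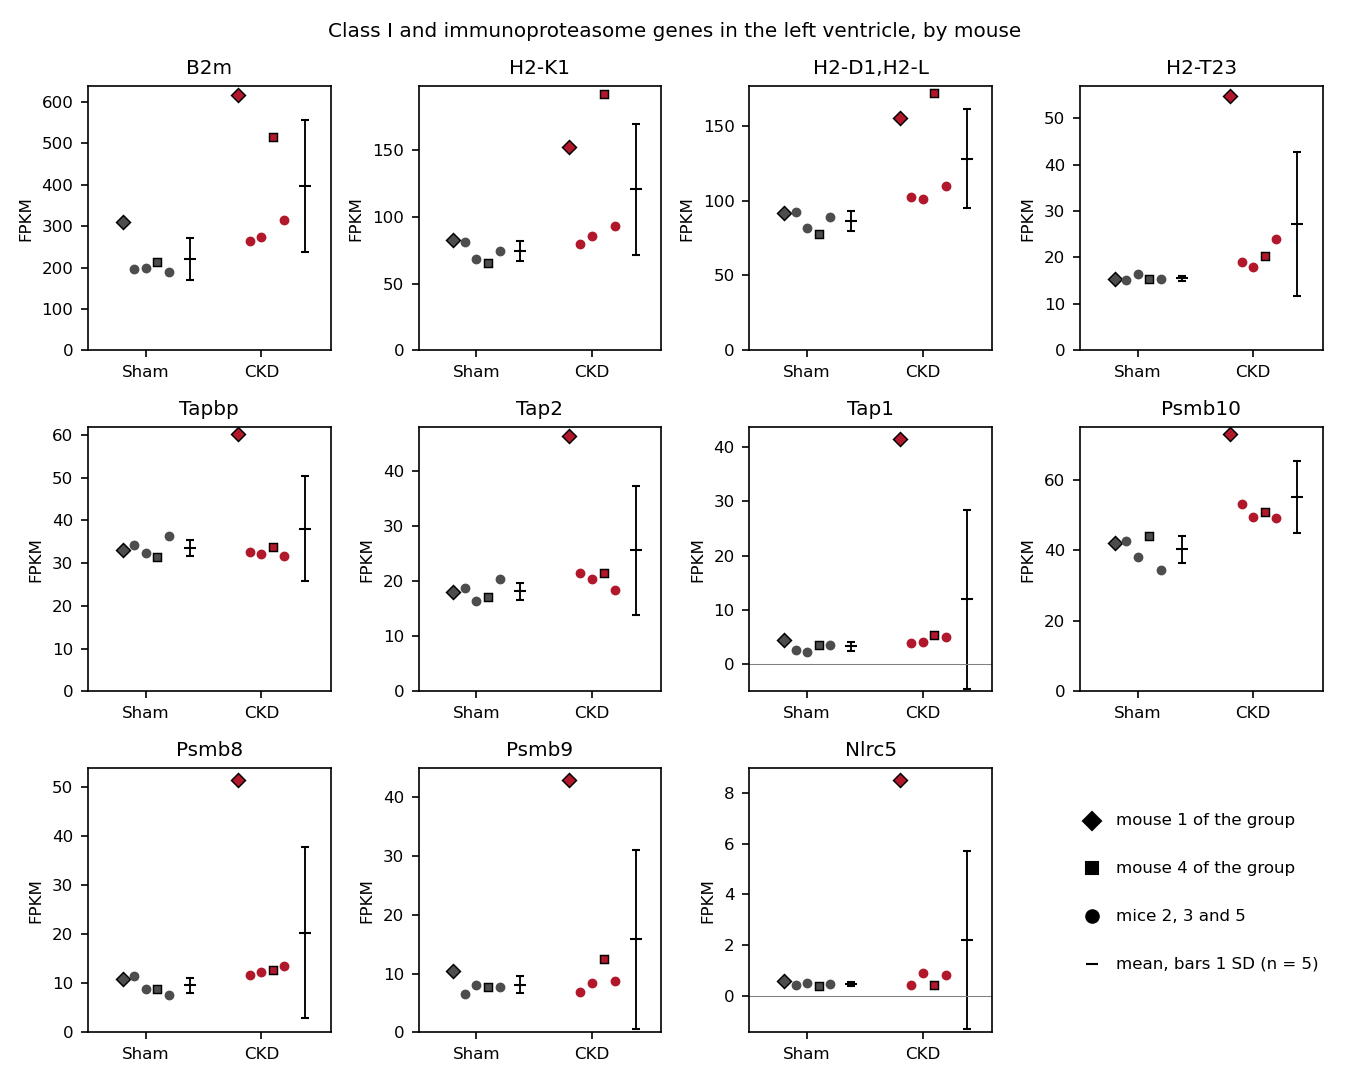
FPKM of the 10 genes and the joined H2-D1,H2-L entry in each of the 10 ventricles, with 1 point per mouse, Sham and CKD side by side. CKD 1 is the highest point for 9 of the 10 genes, and for Nlrc5 it stands at 8.49 FPKM where the other 9 mice lie below 1.

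B2m encodes the light chain shared by class I molecules. Its level was 616 FPKM in CKD 1, 263 in CKD 2, 274 in CKD 3, 515 in CKD 4 and 315 in CKD 5. In Sham mice it was 309, 196, 199, 212 and 188 FPKM in replicates 1 to 5. CKD 1 and CKD 4 were far above the rest, and Sham 1 lay above CKD 2 and CKD 3, so the groups overlapped. Group means were 397 ± 159 FPKM for CKD and 221 ± 50.2 FPKM for Sham (SD, n = 5 each). The difference was 0.78 on the log2 scale (SE 0.23) and was not called by limma (adjusted p = 0.0785). Without CKD 1 it was 0.60 (adjusted p = 0.110), and with Sham 1 left out as well 0.73 (adjusted p = 0.0534).

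H2-K1 encodes the classical heavy chain K. It stood at 152.5 FPKM in CKD 1, 80.1 in CKD 2, 86.0 in CKD 3, 192.1 in CKD 4 and 93.6 in CKD 5, against 83.1, 81.4, 68.6, 65.9 and 74.7 in Sham 1 to 5. CKD 4 was the highest library, CKD 1 the second, and CKD 2 lay within the Sham range. The difference was 0.61 (log2, SE 0.21, adjusted p = 0.132 by limma), and 0.50 (adjusted p = 0.211) without CKD 1. For the joined H2-D1,H2-L entry, the other classical heavy chains, the CKD levels were 155, 102, 101, 172 and 110 FPKM and the Sham levels 92.0, 92.6, 81.9, 77.4 and 89.0. Here all CKD mice were above all Sham mice, with CKD 4 and CKD 1 again on top, and the difference of 0.53 (log2, SE 0.14) had an adjusted p of 0.0549 by limma. Without CKD 1 it was 0.45 (adjusted p = 0.0931), and with Sham 1 left out as well 0.47 (adjusted p = 0.123). Class I heavy chains are close copies of each other and the sources used here do not say how reads shared between them were assigned, so the split of signal between H2-K1, H2-D1 and their relatives is uncertain.

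H2-T23 encodes the nonclassical chain Qa-1, which presents leader peptides of other class I chains to NK cell receptors. Its Sham values were nearly equal, 15.5, 15.1, 16.5, 15.3 and 15.4 FPKM, and its CKD values were 54.7, 19.1, 18.01, 20.2 and 23.98 FPKM. All 5 CKD mice were above the Sham range, CKD 1 at more than 2 times any other library. With CKD 1 the spread in the CKD group (27.2 ± 15.6 FPKM, SD, n = 5) was large and the difference of 0.65 (log2, SE 0.24) was not called by limma (adjusted p = 0.155). Without CKD 1 the difference was smaller but its error smaller still, 0.37 (SE 0.08, adjusted p = 0.0228), a 1.29-fold rise, and with Sham 1 left out as well it was 0.37 (adjusted p = 0.0403). H2-T23 overlaps the annotated gene A930015D03Rik, at 1.63 to 3.70 FPKM, and B2m overlaps Patl2, listed at 0. Tapbp overlaps Gm19412, and Nlrc5 overlaps 9330175E14Rik, Gm51584 and Mir7072, with levels not given here. The sources used here do not say whether counting used strand.

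Tap1 and Tap2 encode the 2 subunits of the TAP transporter. Tap1 stood at 41.4 FPKM in CKD 1 and at 3.94, 4.07, 5.38 and 4.96 in CKD 2 to 5, against 4.47, 2.71, 2.33, 3.49 and 3.64 in Sham 1 to 5. CKD 1 was 7.69 times the next library, while CKD 2 and CKD 3 lay below Sham 1. Its difference was 1.04 (log2, SE 0.52, adjusted p = 0.299 by limma) with all libraries, the largest of the 10, and 0.43 (SE 0.16, adjusted p = 0.153) without CKD 1. With both of those libraries left out, CKD 1 and Sham 1, it was 0.53 (adjusted p = 0.0700) and the groups no longer overlapped. Tap2 was 46.4 FPKM in CKD 1, 21.5, 20.4, 21.4 and 18.4 in the other CKD mice, and 18.1, 18.8, 16.4, 17.1 and 20.4 in Sham mice. CKD 1 again stood alone, and CKD 5 lay below Sham 2 and Sham 5. The difference was 0.40 (log2, adjusted p = 0.305), and 0.17 (adjusted p = 0.231) without CKD 1.

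Tapbp encodes tapasin, which bridges TAP and the heavy chain. Its CKD levels were 60.1, 32.7, 32.1, 33.9 and 31.6 FPKM and its Sham levels 33.05, 34.4, 32.4, 31.5 and 36.3. Only CKD 1 lay outside the Sham range on the upper side, and the sign of the difference turned on this library, 0.14 (log2, SE 0.15, adjusted p = 0.695 by limma) with it and -0.04 (SE 0.05, adjusted p = 0.735) without it.

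Psmb10 encodes the immunoproteasome subunit beta-2i, which takes the place of the constitutive Psmb7 product. Its levels were 73.0, 53.2, 49.5, 50.9 and 49.1 FPKM in CKD 1 to 5 and 41.9, 42.7, 38.2, 44.0 and 34.4 in Sham 1 to 5. The lowest CKD value lay above the highest Sham value, and the 4 CKD mice besides CKD 1 fell within a narrow band. Psmb10 rose 1.35-fold, from 40.3 ± 3.94 to 55.2 ± 10.12 FPKM (SD, n = 5 each, log2 0.44, SE 0.11, adjusted p = 0.0394 by limma). Without CKD 1 the rise was 1.26-fold (log2 0.33, SE 0.07, adjusted p = 0.0254), and with Sham 1 left out as well the adjusted p was 0.0349. The call was lost when any 1 of the other 9 libraries was left out (adjusted p = 0.0502 to 0.0931), with differences of 0.38 to 0.48 on the log2 scale.

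Psmb8 encodes beta-5i, the chymotrypsin-like immunoproteasome subunit. Its levels were 51.4, 11.7, 12.3, 12.7 and 13.6 FPKM in CKD mice and 10.9, 11.5, 8.75, 8.88 and 7.71 in Sham mice. The groups did not overlap, though CKD 2 was only just above Sham 2, and CKD 1 was 3.77 times the next library. The difference was 0.79 (log2, SE 0.34, adjusted p = 0.228 by limma), and 0.39 (SE 0.11, adjusted p = 0.0650) without CKD 1. Psmb9, which encodes beta-1i, was 42.8, 6.90, 8.38, 12.5 and 8.67 FPKM in CKD mice and 10.4, 6.45, 8.08, 7.63 and 7.75 in Sham mice. CKD 1 and CKD 4 were above all Sham mice, whereas CKD 2, CKD 3 and CKD 5 lay within the Sham range. Its difference was 0.59 (log2, SE 0.39, adjusted p = 0.446), and 0.15 (adjusted p = 0.649) without CKD 1.

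Each immunoproteasome subunit replaces a constitutive one, and their ratio in a library (each FPKM with 0.5 added) is a measure that a common scale factor leaves nearly as it is. Psmb5 is present only in a joined entry with the microRNA gene Mir686. Psmb8 was 107% of Psmb5 in CKD 1, 21.7%, 27.1%, 25.3% and 26.3% in CKD 2 to 5, and 17.4%, 19.996%, 16.2%, 16.2% and 16.0% in Sham mice, so the groups did not overlap. The difference in mean log2 ratio was 0.97 (SE 0.43) with all libraries (exact permutation test, two-sided, p = 0.00794, 0.0119 adjusted over the 3 ratios) and 0.55 (SE 0.09) without CKD 1 (exact permutation p = 0.00794, adjusted 0.0238). This p is the smallest that 252 splits of 5 against 5, or 126 splits of 4 against 5, can give here.

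Psmb10 was 32.2%, 23.1%, 21.96%, 22.5% and 21.3% of Psmb7 in CKD mice and 19.2%, 19.6%, 17.9%, 20.8% and 16.7% in Sham mice. These groups did not overlap either, with a difference of 0.35 (log2, exact permutation p = 0.00794, adjusted 0.0119), and 0.24 without CKD 1 (exact permutation p = 0.0159, adjusted 0.0238). Psmb9 was 30.8% of Psmb6 in CKD 1 and 10.4% in CKD 4, but 5.14% to 6.92% in the other CKD mice, inside the Sham range of 5.00% to 7.19%. Its difference of 0.62 did not pass (exact permutation p = 0.198), nor did 0.20 without CKD 1 (exact permutation p = 0.365). The constitutive subunits were not called, with differences of -0.18 for Psmb5 (joined entry, adjusted p = 0.182 by limma), -0.03 for Psmb6 (0.852) and 0.09 for Psmb7 (0.191) on the log2 scale. An unadjusted limma p under 0.05 was reached by 2 of these 3, Psmb5 lower and Psmb7 higher, against 19.5% of tested entries. Every CKD value of Psmb7 lay above every Sham value. Without CKD 1, Psmb5 differed by -0.16, which adds to the Psmb8 to Psmb5 difference.

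**Figure D2:**
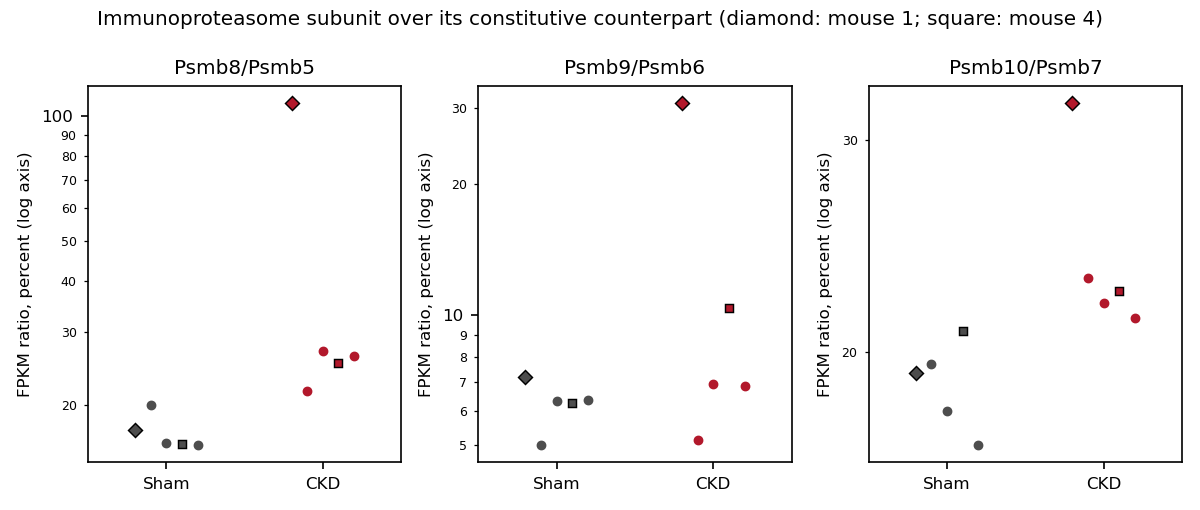
FPKM of each immunoproteasome subunit as a percent of its constitutive counterpart (log axis), 1 point per mouse. For Psmb8 over Psmb5 and Psmb10 over Psmb7 every CKD mouse lies above every Sham mouse, and for Psmb9 over Psmb6 only CKD 1 (30.8%) and CKD 4 (10.4%) do.

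Nlrc5 encodes the class I transactivator. It was at 8.49 FPKM in CKD 1 and at 0.420, 0.893, 0.426 and 0.806 in CKD 2 to 5, against 0.577, 0.417, 0.491, 0.399 and 0.446 in Sham mice. CKD 1 was 9.51 times the next library, CKD 3 and CKD 5 were somewhat above the Sham range, and CKD 2 and CKD 4 lay within it. As a description, the difference was 0.81 on the log2 scale, and 0.21 without CKD 1. No test is given, since the gene met the filter through CKD 1 alone. At these levels the 0.5 added before the log makes differences smaller than the ratio of FPKM.

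**Figure D3:**
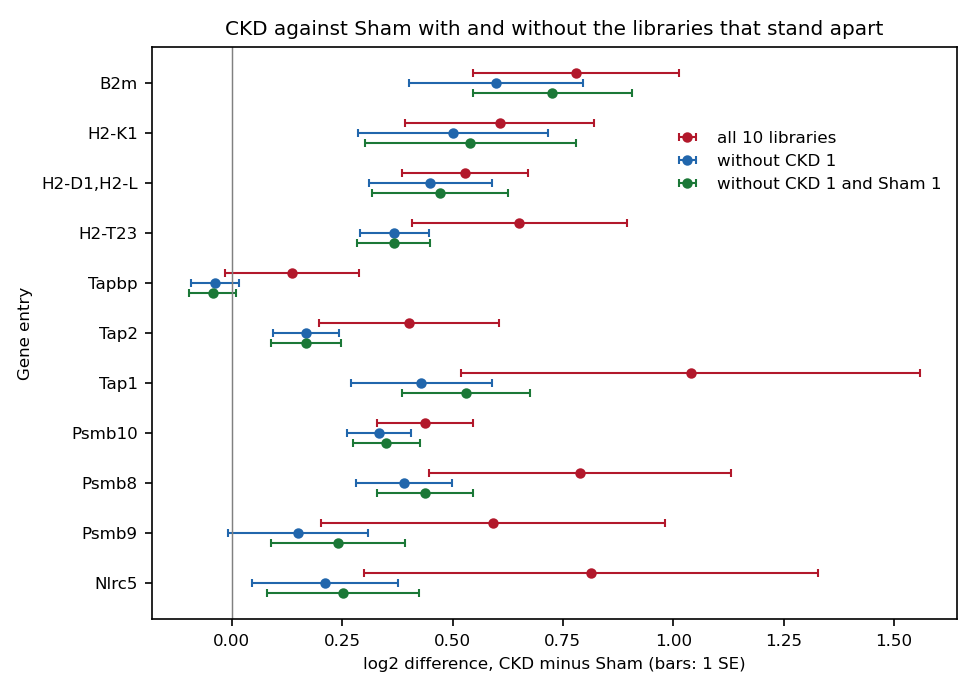
Difference between CKD and Sham in mean log2(FPKM + 0.5) with bars of 1 SE, from all 10 libraries, from 9 (CKD 1 left out) and from 8 (Sham 1 left out as well). Leaving out CKD 1 lowers each value, most for Tap1 (1.04 to 0.43), and turns Tapbp from 0.14 to -0.04.

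In CKD 1 the 10 genes were high together, but by very different amounts. CKD 1 was the highest of the 10 libraries for 9 of the 10 genes, H2-K1 being the exception, as for 15% of tested entries. It was more than 2 times the next library for 6 of them, H2-T23, Tap1, Tap2, Psmb8, Psmb9 and Nlrc5, as for 57 tested entries (0.489%). Nlrc5 met the filter only through CKD 1, so its place in both of these counts was fixed beforehand and adds nothing to them. Set against the Sham mean, CKD 1 was 18.2-fold higher for Nlrc5, 12.4-fold for Tap1, 5.38-fold for Psmb8, 5.31-fold for Psmb9 and 3.52-fold for H2-T23. B2m was 2.79-fold higher, Tap2 2.56-fold, H2-K1 2.04-fold, Psmb10 1.81-fold and Tapbp 1.79-fold. The genes lowest in Sham ventricles, Nlrc5 and Tap1, were those furthest above it in CKD 1. Against Sham 1, the library with a like spacing of low values, the same order held for the leading genes, 14.7-fold for Nlrc5, 9.25-fold for Tap1, 4.73-fold for Psmb8 and 4.11-fold for Psmb9, and the lowest ratio was 1.74-fold for Psmb10.

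**Figure D4:**
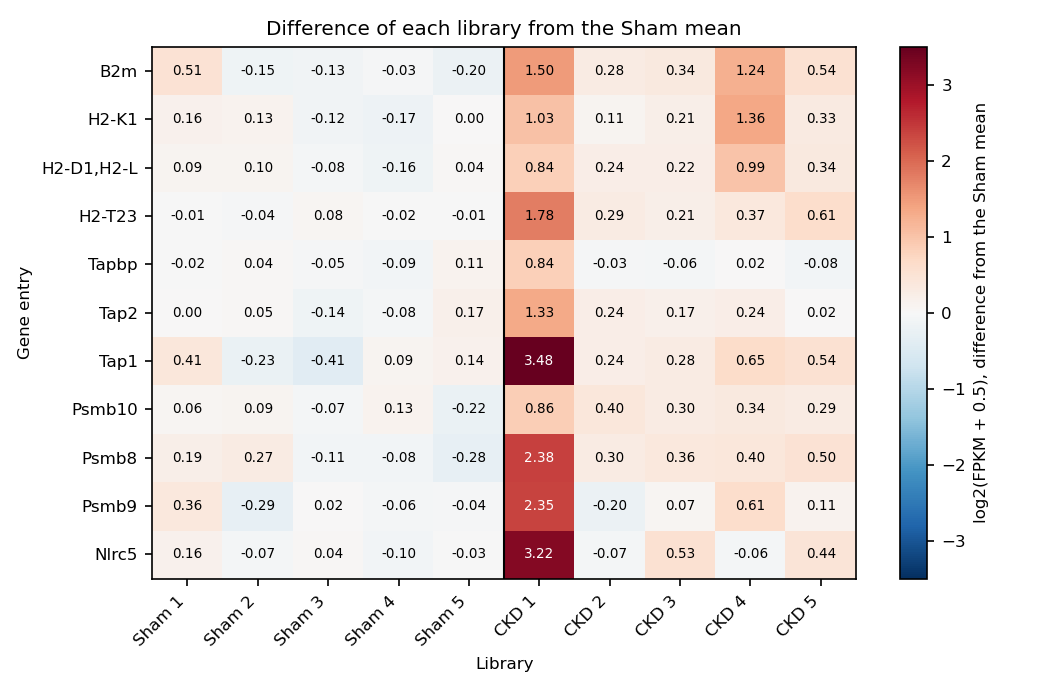
Deviation of each mouse from the Sham mean in log2(FPKM + 0.5), genes in rows and mice in columns. CKD 1 is raised in every row, from 0.84 for Tapbp to 3.48 for Tap1, and CKD 4 is raised mainly for H2-K1 (1.36), the H2-D1,H2-L entry (0.99) and B2m (1.24).

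CKD 4 showed a different pattern, mainly in H2-K1, the H2-D1,H2-L entry and B2m. Compared with the mean of CKD 2, CKD 3 and CKD 5, it was 2.22-fold for H2-K1, 1.81-fold for B2m, 1.65-fold for the H2-D1,H2-L entry and 1.56-fold for Psmb9. The ratio was 1.24 for Tap1 and between 0.994 and 1.07 for Tap2, Tapbp, Psmb8, Psmb10 and H2-T23, and 0.604 for Nlrc5. In CKD 4, Nlrc5 (0.426 FPKM, a low level) lay within the Sham range, and Psmb8 (12.7 FPKM) within the range of CKD 2, CKD 3 and CKD 5. Psmb9 was above all Sham mice there, and the heavy chain H2-T23 was not raised over the other 3. What sets the levels in this mouse was not tested. Across the 9 libraries without CKD 1, Pearson's r of log2 values was 0.98 between H2-K1 and the H2-D1,H2-L entry, 0.90 between H2-K1 and B2m, 0.84 between B2m and Psmb9, 0.85 between Psmb8 and Psmb10, and 0.01 between H2-K1 and Nlrc5. These are descriptions over libraries that include both groups, and reads shared between heavy chains can add to the first.

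**Figure D5:**
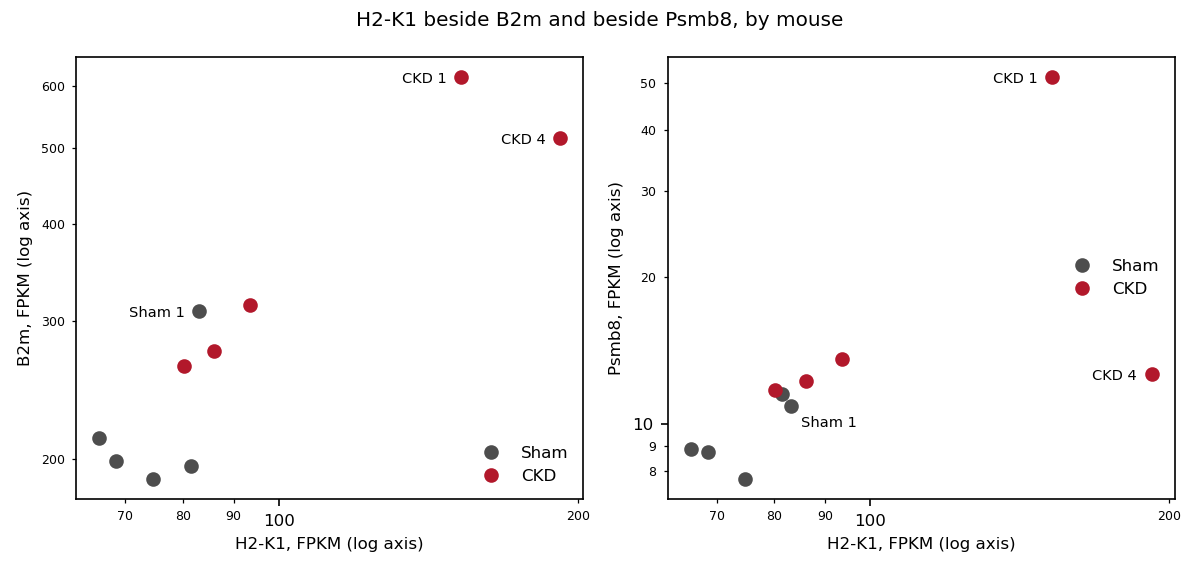
FPKM of H2-K1 against B2m (left) and against Psmb8 (right), both axes logarithmic, 1 point per mouse. CKD 1 is high on both axes in both panels, while CKD 4 is high for H2-K1 and B2m (192.1 and 515 FPKM) but not for Psmb8 (12.7 FPKM).

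Other class I heavy chains and class I-like genes had a positive median difference (0.47, and 0.28 without CKD 1, log2), but limma called none of 13 tested in either direction, with or without CKD 1. An unadjusted p under 0.05 in either direction was reached by 6 of them, and by 3 without CKD 1, against 19.5% and 20.8% of all tested entries. Of 27 listed, 24 had an entry. H2-T24, a nonclassical chain, was 25.8 FPKM in CKD 1, where CKD 2 to 5 ranged from 9.01 to 14.0 and Sham mice from 8.30 to 10.2 (log2 0.53, adjusted p = 0.208 by limma, and 0.29, adjusted p = 0.166, without CKD 1). The chains H2-Q7, H2-Q8 and the joined H2-T22,H2-T9 entry, named after their values were seen, were high in CKD 1, CKD 4 and Sham 1. H2-Q7 was 11.8, 9.94 and 8.29 FPKM in these 3 libraries against 2.00 to 4.66 in the other 7, and H2-Q8 was 15.2, 12.1 and 7.54 against 2.81 to 6.23. The H2-T22,H2-T9 entry was 17.8, 17.5 and 11.2 FPKM there and 8.90 to 10.7 elsewhere.

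Few other genes of the pathway were called. Among 16 tested genes of peptide loading and trimming limma called none with all libraries (median 0.00 on the log2 scale, 4 with an unadjusted p under 0.05, beside the 19.5% of all tested entries), Hspa5, an endoplasmic reticulum chaperone, differing by -0.24 (adjusted p = 0.143). Canx, the chaperone calnexin, fell by 0.27 (adjusted p = 0.0234 by limma) without CKD 1, and by 0.21 (adjusted p = 0.106) with it. None of 11 other subunits of the 20S core was called (median 0.02, 1 with an unadjusted p under 0.05), Psma7 being nearest with a difference of 0.14 (adjusted p = 0.0654), before Psma5 with 0.06 (0.521). None of 10 proteasome activators and assembly factors was called (median -0.02, 0 with an unadjusted p under 0.05), among them the interferon-responsive activator Psme2 with 0.16 (adjusted p = 0.338) and the assembly factor Psmg4 with 0.08 (0.673). None of 18 subunits of the 19S cap was called (median 0.05, 3 with an unadjusted p under 0.05), with differences of 0.16 for Psmd11 (adjusted p = 0.0864) and 0.14 for the ubiquitin receptor Adrm1 (0.191). Without CKD 1 limma again called none of the genes in the 20S core, activator and 19S lists. An unadjusted p under 0.05 was then reached by 1 of 11, 0 of 10 and 6 of 18, against 20.8% of tested entries. The 19S differences were small (median 0.06 without CKD 1) but positive for 16 of 18 genes, and for 18 of 18 without CKD 1. The shares of tested entries were 48.9% and 47.6%.

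Upstream of these genes, 17 of 19 interferon signalling genes were tested, and 1 was called higher and 1 lower (background 3.17% and 2.12%). An unadjusted p under 0.05 in either direction was reached by 8 of 17, and by 7 without CKD 1, against 19.5% and 20.8% of tested entries. Every CKD value lay above every Sham value for 4 of 17, as for 4.1% of tested entries. Stat3, a signal transducer of the interleukin-6 family, rose by 0.35 (log2, adjusted p = 0.00924 by limma, and by 0.31, adjusted p = 0.0161, without CKD 1). Ifngr2, a chain of the interferon gamma receptor, fell by 0.24 (adjusted p = 0.0123, and by 0.26, adjusted p = 0.0115, without CKD 1). Without CKD 1, 4 interferon signalling genes were called higher by limma (background 2.77%). Stat2 (0.32, adjusted p = 0.0277), Irf7 (0.61, adjusted p = 0.0167) and Irf9 (0.45, adjusted p = 0.0188), which carry type I interferon signals, were then added to Stat3. Irf1, an interferon-induced transcription factor, was 74.5 FPKM in CKD 1 against 8.76 to 16.2 in the other 9 mice. Ifng and Ifnb1, the interferons themselves, were each above 0 in 1 library, at 0.0875 and 0.15 FPKM. Irf1 was called neither with CKD 1 (log2 0.78, adjusted p = 0.323 by limma) nor without it (0.31, adjusted p = 0.263). None of 12 tested promoter factors of the class I and II genes was called (median -0.05, 1 with an unadjusted p under 0.05), with -0.16 for Nfyc (adjusted p = 0.248) and -0.14 for Rfxap (0.265), subunits of the NF-Y and RFX complexes. The class II transactivator Ciita, below the filter, was at 2.102 FPKM in CKD 1 and at 0.312 to 0.800 in the others.

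Genes whose levels were most like the mean deviation of the 10, over all 10 libraries, were Gbp3 (Pearson's r 0.99), Irgm1 (0.98), Gbp2b (0.98), Uba7 (0.98), Irgm2 (0.98), Gbp7 (0.97), Gbp4 (0.97) and Irf1 (0.97). All 8 were highest in CKD 1, for example 48.4 FPKM for Gbp3, an interferon-induced GTPase, against 2.90 to 5.86 in the other 9 mice. Over the 9 libraries without CKD 1 the genes were Nudt13 (0.91), Ifit3 (0.90), Sgsh (0.90), Cd68 (0.89), Irgm1 (0.89), Capns1 (0.89), Ly86 (0.88) and Emp3 (0.88). Irgm1, an immunity-related GTPase, was in both lists. These are the highest of the correlations with all other tested entries, over 9 or 10 points that share libraries and groups, and are given as a description. The mean deviation itself, Nlrc5 included, was 1.88 in CKD 1 and -0.09 to 0.52 in the other 9 mice. CKD 1 therefore largely sets the list over all 10 libraries, for which Spearman's rho, from ranks, was 0.81 to 0.94.

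Markers of the cell types that a ventricle sample can hold moved in part with CKD. Of 7 tested macrophage markers limma called 5 higher (background 3.17%), and 4 without CKD 1 (background 2.77%, Csf1r then at adjusted p = 0.0517). The summed level of the 8 macrophage markers with an entry was 209 to 319 FPKM in CKD and 137 to 162 in Sham. It was 265 in CKD 1 and 209, the lowest of the CKD group, in CKD 4. Fibroblast markers were called higher for 3 of 7, Col1a1, Col1a2 and Lum, with or without CKD 1 (background 3.17% and 2.77%). The other 4 were not called, with differences of 0.05 for Pdgfra, 0.07 for Dcn, 0.26 for Dpt and -0.13 for Tcf21 (log2). Fibroblast sums were 656 to 799 FPKM in CKD and 576 to 646 in Sham. Of 4 lymphatic endothelial markers (sums 38.9 to 41.9 and 29.1 to 34.8 FPKM) Lyve1 alone was called, with 0.91 (log2), and 0.88 without CKD 1, while Prox1 differed by -0.44 (adjusted p = 0.147). Endothelial markers were called for 0 of 8 (sums 2029 to 2492 and 2138 to 2336 FPKM), with an unadjusted p under 0.05 for 0, and without CKD 1 for 4 higher and 1 lower. T cell markers summed to 1.26 to 1.84 FPKM in CKD (1.35 in CKD 1) and 1.34 to 3.60 in Sham, and NK cell markers to 0.524 to 1.099 and 0.412 to 1.39, with none reaching a mean of 1 FPKM. As for the labelled tissue, 7 cardiomyocyte markers summed to 51832 to 63661 FPKM in CKD and 54820 to 66319 in Sham, but Myh6 was listed at 0 in all 10 libraries. The part that macrophages or other cells take in the levels of the 10 genes was not tested, and in bulk tissue more cells of a type and more RNA per cell cannot be told apart. Among genes that read class I on immune cells, 2 of 11 were tested and 1 was called. Pirb, an inhibitory receptor for class I on myeloid and B cells, rose by 0.69 (log2, adjusted p = 0.0159 by limma), from 1.81 to 2.91 FPKM in Sham mice to 3.29 to 5.36 in CKD mice. Without CKD 1 it rose by 0.68 (adjusted p = 0.0290), and with Sham 1 left out as well the call was lost (0.63, adjusted p = 0.0588).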

How the data were processed

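Left ventricular RNA of 5 CKD and 5 Sham mice was kept in RNALater, made into libraries with the TruSeq mRNA protocol and read as 100-base single reads on a HiSeq instrument, per the labels' protocols. The authors deposited 1 table of FPKM values. The submitters' processing notes name STAR 2.4.0f1, Cufflinks 2.1.1, Cuffdiff 2.1.1 and the builds mm10 and hg19, with no role given. Of 23303 entries, 5594 were at 0 in all libraries and 272 joined several genes. Libraries summed to 570509 to 605007 FPKM and correlated at 0.97 to 0.99. FPKM is not a count, so no count model was used.

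Values were analysed as log2(FPKM + 0.5), so fold changes understate the change of low genes. The 11651 entries with a mean FPKM of at least 1 were fitted with limma 3.58.1 in R 4.3.3 (eBayes with trend, two-sided, Benjamini-Hochberg threshold 0.05). The procedure was also run on simulated data. These held no library set apart like CKD 1 or Sham 1, so they do not show how the fit behaves with such libraries. Ratios of subunits were compared by exact permutation of mice. The alternatives were other pseudocounts, filters, scalings and variance models, leaving out each library, and leaving out CKD 1 with Sham 1. Positions and sequences are RefSeq's for GRCm38.p6, the assembly that mm10 denotes, and 8 of the 10 genes matched a start window.

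The members, lists and tests were chosen with earlier results of these data known. Named genes are the 10 members, H2-D1,H2-L, the 3 constitutive subunits, up to 5 called genes of each pathway list (otherwise the 2 with the smallest p), the 8 most alike and Irf1. One gene that the rule names is not reported here. H2-Q7, H2-Q8, H2-T22,H2-T9, Stat2, Irf7, Irf9, Ciita, Ifng, Ifnb1, Csf1r, Lyve1, Prox1, H2-M3, the fibroblast markers and the genes overlapping members were named after their values were seen.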

Additional observations from a re-analysis of the deposited data

Results flagged for a closer look

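A library was singled out where its gap to the next of its group, divided by the group's range in log2(FPKM + 0.5), passed Dixon's critical value for 5 samples, 0.71. Over 49 genes and 3 ratios in both groups, 104 groups were examined and 26 held such a library, where chance gives about 1 in 20. CKD 1 was the highest library in 19 of them. Among the 10 members it stood apart for H2-T23 (0.744), Tap1 (0.875), Tap2 (0.831), Tapbp (0.891), Psmb8 (0.9), Psmb10 (0.798) and Nlrc5 (0.818), where the value in parentheses is the gap over the range. Among interferon-related genes the same held for Ifit3 (0.752), Irgm1 (0.924), Gbp3 (0.871), Gbp2b (0.822), Uba7 (0.875), Irgm2 (0.855), Gbp7 (0.913), Gbp4 (0.912), Irf1 (0.856) and Stat2 (0.888). For the subunit ratios it held for Psmb8/Psmb5 (0.862) and Psmb10/Psmb7 (0.811). These genes were in part named because CKD 1 was high, so the number of them is no independent evidence.

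In the Sham group, Sham 1 was the high library for B2m (0.758), Ifit3 (0.718), Emp3 (0.84) and the joined H2-T22,H2-T9 entry (0.887). Sham 3 was high for H2-T23 (0.728), although the 5 Sham values of that gene span only 15.1 to 16.5 FPKM. Sham 5 was low for Ifngr2 (0.71). CKD 5 was high for Pirb (0.712), at 5.36 FPKM against 3.29 to 3.79 in the other CKD mice.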

How the results depend on the processing

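Over 20 alternatives, Tapbp (log2 0.14) changed sign in 2, to -0.0438 with CKD 1 and Sham 1 left out, and over single libraries left out it ranged from -0.0391 (CKD 1) to 0.1904 (CKD 5). Psmb6 (-0.03) ranged from -0.0535 without CKD 2 to 0.0094 without Sham 1. Of the other values of named genes, 930 kept direction and side of the threshold, 29 passed it anew and 13 no longer passed. Of these 13, 12 concern Psmb10 (0.059 without a filter, 0.057 scaled to the same total, 0.054 without a variance trend, and leaving out any 1 library but CKD 1) and 1 Pirb (adjusted p = 0.0588 without both CKD 1 and Sham 1). B2m passed with array weights (adjusted p = 0.0499) and H2-D1,H2-L without CKD 3 (0.0452). The members called higher numbered 1 by limma, 0 without a filter, 0 scaled to the same total, 0 without a variance trend, 2 with array weights, 2 without both CKD 1 and Sham 1, and 0 to 2 when 1 library was left out. Over all genes, leaving out 1 library gave 201 to 384 higher (369 with all) and 131 to 290 lower (247 with all), and array weights gave 400 lower. The counts were lowest without Sham 3 for higher and without CKD 2 for lower. The Psmb9 to Psmb6 difference ranged from 0.20 without CKD 1 to 0.84 without CKD 2, where it passed (exact permutation, adjusted p = 0.0238). Nlrc5 was not tested at a filter mean of 5 FPKM, nor were Pirb, Ifit3, Sgsh and Ly86. No paired analysis was possible because the replicate numbers only name mice. Reads per value are unknown, so counting error cannot be given. Apart from the counts and signs given, the cause was not tested.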
